A study of Mus musculus with 33 samples.

Results

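Squalene to cholesterol enzymes are the proteins that turn the linear hydrocarbon squalene into the ring system of cholesterol. The 9 genes described are Sqle, Lss, Cyp51, Tm7sf2, Nsdhl, Hsd17b7, Ebp, Sc5d and Dhcr7, given in pathway order, out of 18829 genes named on the array. Every probe set of the array annotated to exactly 1 of these genes was taken, which gave 18 probe sets of 45101 in all. The samples were right hippocampi of 33 male mice on a SJL × C57BL/6J background, 1 Affymetrix MOE430 2.0 array per animal, in 3 groups of 11. Wild-type littermates received vehicle (2% Tween 80 with 0.5% sodium carboxymethylcellulose by gavage), heterozygous Tg2576 mice received the same vehicle, and further heterozygous Tg2576 mice received TO901317 at 50 mg per kg per day. Tg2576 mice carry human APP bearing the Swedish mutation of familial Alzheimer's disease under the prion promoter, which is active in many cell types. TO901317 is a small molecule that activates LXR, the liver X receptors, which switch on genes of cholesterol efflux. The animals were 20 weeks old and were killed 1 hour after the last dose. The length of dosing is uncertain, since the series design states 7 days and the treatment protocol 5. None of the 33 samples came from wild-type mice given the agonist, so the drug was compared in Tg2576 mice only.

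Brain cholesterol is made locally, since lipoproteins of the blood do not cross the blood-brain barrier, and astrocytes and myelinating oligodendrocytes are its main producers. The pathway from squalene starts with an epoxidation and a cyclisation to lanosterol, and then removes methyl groups and moves or reduces double bonds until cholesterol is reached. Most of its genes are switched on by SREBP2, a membrane-bound transcription factor that is released when sterols in the endoplasmic reticulum are low, and that works together with NF-Y, which binds CCAAT boxes. Oxysterols, the natural LXR ligands, also hold SREBP2 back.

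The promoters are shown because several of the genes were called in the same direction. The RefSeq promoter table (build GRCm38.p6) held 10 start sites of 8 members, with 3 for Dhcr7 and no entry for Sqle. In the 250 bases before the start, the CCAAT box (letters CCAAT, either strand) was present for 8 of 8 member genes, against 37.5% of all 27025 genes in the table searched the same way. Counted by start site it was present at 8 of 10 member starts and at 33.8% of all starts. The GC box GGGCGG, on either strand, was present for 8 of 8 member genes and 35.4% of all genes, and the E-box CACGTG for 3 of 8 against 6.86%. The classical sterol element TCACNCCAC was found in 0 of 8 member genes and in 1.22% of all genes. None of these motifs contains another. They are letter matches in a fixed window and say nothing about binding. The CCAAT and GC boxes were present in called and uncalled members alike, so they do not set the called ones apart. Nsdhl and Hsd17b7, the latter on its brightest probe set only, were called higher in vehicle Tg2576 mice. Cyp51 was called lower after treatment, on the dimmer of its tested probe sets only. The sequences of Nsdhl, Hsd17b7 and Cyp51 are given 5′ to 3′ along the gene with CCAAT or its reverse complement ATTGG in capitals. They lie at chrX:72918271-72918520 (plus strand), chr1:169969206-169969455 (minus strand) and chr5:4104698-4104947 (minus strand).
Nsdhl: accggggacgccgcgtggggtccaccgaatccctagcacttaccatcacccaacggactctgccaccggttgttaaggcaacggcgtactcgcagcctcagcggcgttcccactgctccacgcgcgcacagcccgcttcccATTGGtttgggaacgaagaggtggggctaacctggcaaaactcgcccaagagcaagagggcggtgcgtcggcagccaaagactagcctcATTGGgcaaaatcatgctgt
Hsd17b7: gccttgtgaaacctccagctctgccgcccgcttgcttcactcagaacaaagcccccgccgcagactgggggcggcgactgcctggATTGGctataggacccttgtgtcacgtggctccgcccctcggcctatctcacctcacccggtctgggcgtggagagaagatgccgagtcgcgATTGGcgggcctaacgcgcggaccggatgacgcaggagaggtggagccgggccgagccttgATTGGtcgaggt
Cyp51: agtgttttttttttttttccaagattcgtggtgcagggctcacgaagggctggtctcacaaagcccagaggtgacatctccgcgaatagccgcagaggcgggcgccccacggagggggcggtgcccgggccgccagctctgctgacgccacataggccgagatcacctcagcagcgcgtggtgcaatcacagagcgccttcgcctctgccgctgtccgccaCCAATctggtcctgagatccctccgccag
The CCAAT match nearest to the start ended 16 bases before it in Nsdhl, 8 in Hsd17b7 and 25 in Cyp51.

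Values are MAS5 signals on a linear scale. Trimmed means were 99.97 on all arrays and medians lay between 19.4 and 28.9. Differences are of log2(signal + 16), so they understate changes of dim genes. Probe sets among the lowest 40% by mean signal (under 13.9) were left out of the tests. This removed 1 dim probe set each of Lss, Cyp51 and Hsd17b7, so that 15 of the 18 were tested and all 9 genes kept at least 1. A call means an adjusted p under 0.05 in limma with Benjamini-Hochberg adjustment over all 27022 probe sets tested. All 8 markers fixed for hippocampal neurons were above the filter, and their summed signal ranged over 2586 to 3152 in wild type, 2542 to 3234 in vehicle Tg2576 and 2427 to 3180.2 in treated mice. As a check of the treatment labels, of 8 LXR targets Abca1, Abcg1, Srebf1 and Scd1 were called higher in treated than in vehicle Tg2576 mice. In vehicle Tg2576 replicates 3 and 4 the Gapdh control probe sets, whose signal near the 3′ end is divided by that near the 5′ end as a measure of RNA quality, gave log2 ratios up to 0.11, while -0.077 was the highest value on the other arrays. Results are therefore also given without them.

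Vehicle Tg2576 mice were set against wild type to ask what the transgene changed. The first enzyme, Sqle, and the pair of C-4 demethylation enzymes Nsdhl and Hsd17b7, the latter on its brightest probe set only, were called higher in Tg2576 mice. Of the 15 tested probe sets 3 were called higher, 0 lower and 12 were not called, where 0.0703% of all tested probe sets were called higher and 0.0888% lower. All 15 had a log2 difference above 0, with a median of 0.14, whereas the median over all probe sets was 0.0003 and 50.1% of them were above 0. The members share animals and arrays, so the 15 are not independent.

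Sqle encodes squalene epoxidase, a rate-limiting oxygen-dependent step. Its signal in wild type ran from 337 to 469 with a median of 408, in vehicle Tg2576 from 502 to 703 with a median of 547, and in treated Tg2576 from 323 to 538 with a median of 449.7. Every vehicle Tg2576 animal lay above every wild-type animal. The means were 408 ± 46.0 and 578 ± 72.1 (SD, n = 11 each), a log2 difference of 0.49 (SE 0.07, 95% interval 0.34 to 0.63, limma adjusted p = 0.000224).

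Nsdhl, an X-linked gene, encodes the dehydrogenase that removes a carbon at C-4 of the sterol. Its lowest, median and highest signals were 212, 246 and 288 in wild type, 271, 336 and 414 in vehicle-dosed Tg2576, and 237, 289 and 303 in treated Tg2576. The range overlapped that of wild type through 1 vehicle Tg2576 animal, and the other 10 were above it. The mean rose from 250.4 ± 28.2 to 338 ± 44.3 (SD, n = 11 each), by 0.41 on the log2 scale (SE 0.06, 95% interval 0.28 to 0.53, limma adjusted p = 0.000565).

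Hsd17b7 encodes the ketoreductase that completes C-4 demethylation. On its brightest probe set (1457248_x_at) the signal ran from 106 to 130.1 in wild type with a median of 122, from 131 to 174 in vehicle Tg2576 with a median of 148, and from 111 to 144 in treated Tg2576 with a median of 123. The groups of vehicle animals again did not overlap, as in 2 of the 15 member probe sets, Sqle and this one, against 0.0222% of all probe sets (0 members lay wholly lower, against 0.0037%). The difference was 0.29 (SE 0.05, 95% interval 0.18 to 0.39, limma adjusted p = 0.00343). The ending x_at marks a set in which some probes can read other transcripts. The other tested probe sets of the gene gave 0.22 (1448865_at, adjusted p = 0.4) and 0.11 (1417871_at, adjusted p = 0.75) in limma and were not called, and with all probe sets of the gene averaged the value was 0.21 and the call was lost (adjusted p = 0.0555). Without vehicle Tg2576 replicates 3 and 4, the limma adjusted p was 0.00158 for Sqle (0.45), 0.000935 for Nsdhl (0.43) and 0.0148 for Hsd17b7 (0.27).

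**Figure D1:**
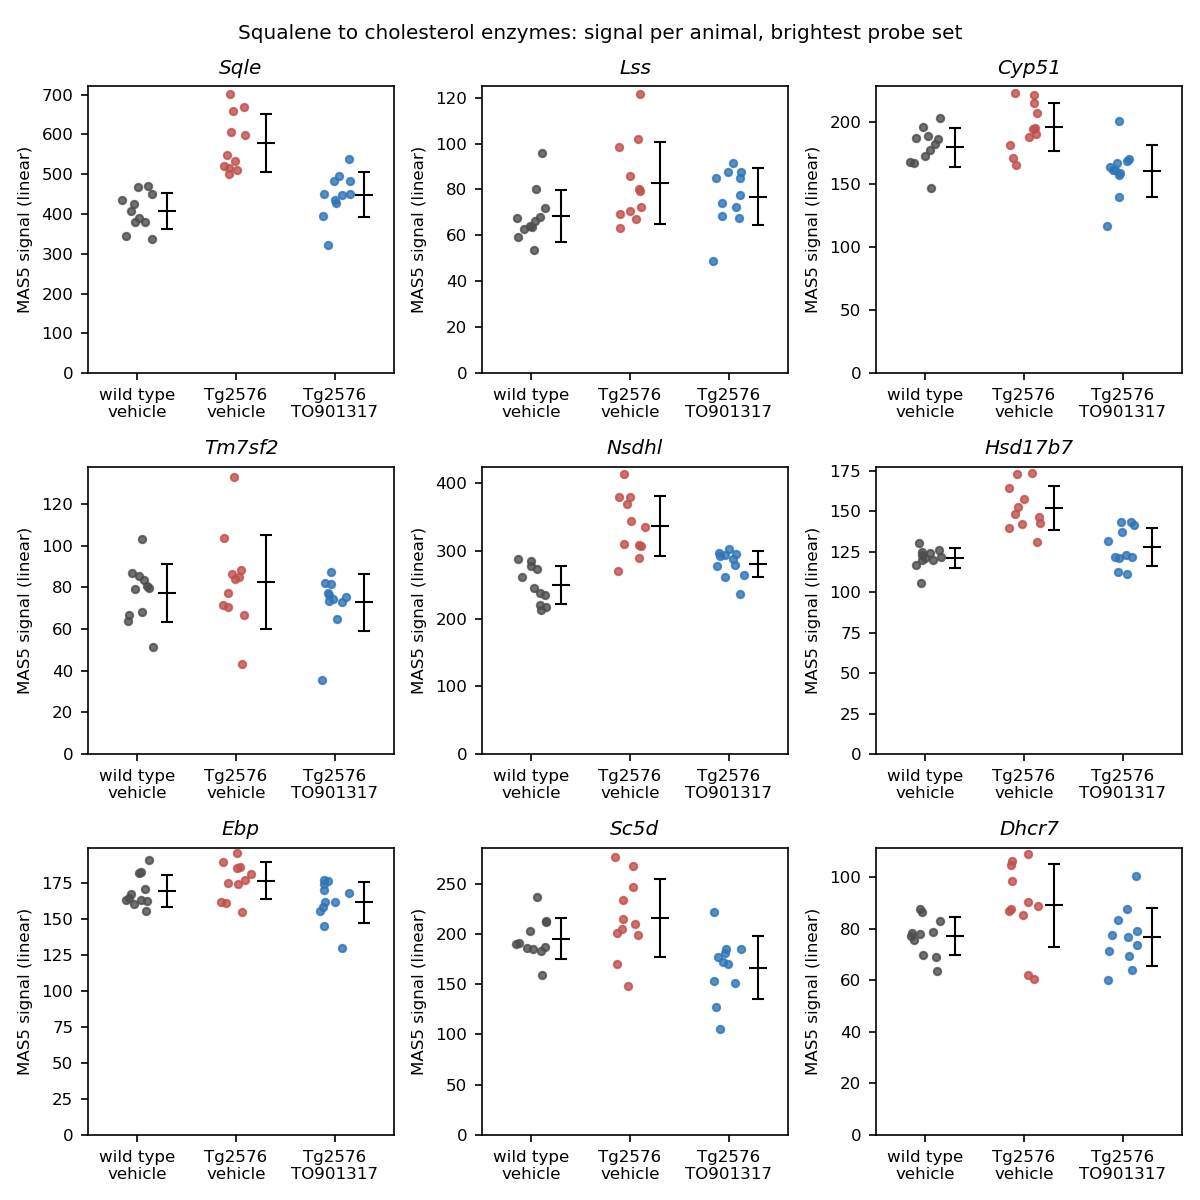
Linear MAS5 signal of the brightest probe set of each of the 9 genes, 1 point per animal, by group, with the mean and SD (n = 11 each) as a bar to the right. The Sqle and Hsd17b7 points of vehicle Tg2576 lie wholly above those of wild type, and the lowest treated animal of Sqle, at 323, also lies below the lowest wild-type animal at 337.

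The other 6 enzymes were not called between the genotypes. Lss, the cyclase that makes lanosterol, differed by 0.22 on its brighter probe set (95% interval 0.03 to 0.40, limma adjusted p = 0.416) and by 0.12 on the other. Its signal on the brighter set was 53.5 to 95.9 in wild type (median 66.1) and 63.1 to 121 in vehicle Tg2576 (median 79.4). Dhcr7, which reduces the last double bond of one branch, ran from 63.5 to 87.5 in wild type (median 78.0) and from 60.6 to 109 in vehicle Tg2576 (median 88.7), and of the 11 vehicle Tg2576 animals 7 exceeded the wild-type range while 2 fell short of it. Its difference was 0.16 (95% interval 0.004 to 0.32, limma adjusted p = 0.502).

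Cyp51 differed by 0.11 and 0.16 on its tested probe sets, Sc5d, a sterol desaturase, by 0.12 on its brightest probe set, Tm7sf2, a sterol reductase, by 0.06, and Ebp, the sterol isomerase, by 0.05. The 95% interval was -0.05 to 0.15 for Ebp and, with more spread between animals, -0.17 to 0.29 for Tm7sf2, with signals of 51.3 to 103 in wild type and 43.1 to 133 in vehicle Tg2576.

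**Figure D2:**
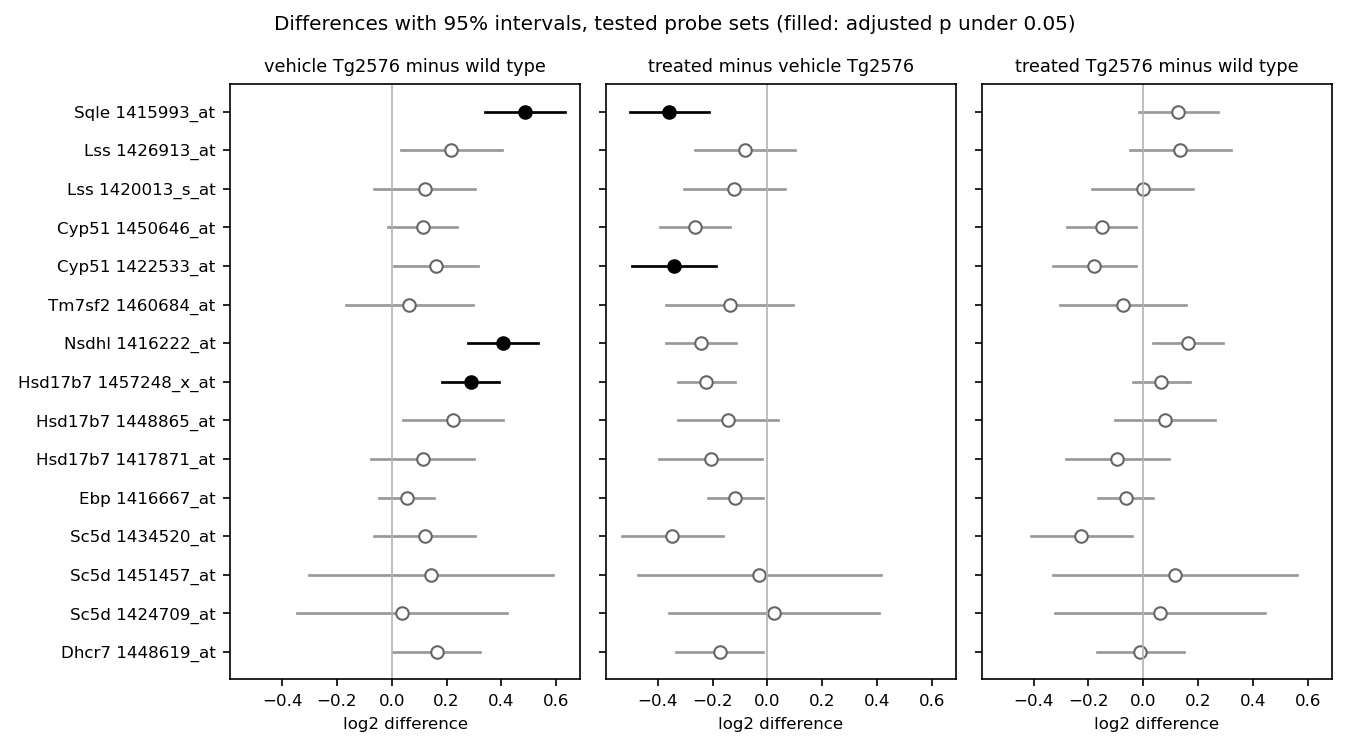
Log2 differences of log2(signal + 16) with 95% intervals from limma for the 15 tested probe sets in pathway order, in 1 panel per comparison. Filled points passed the adjusted p of 0.05: 3 to the right of 0 in the first panel, 2 to the left of 0 in the middle panel and 0 in the third.

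Treated and vehicle Tg2576 mice were compared to ask what the agonist changed. Sqle and 1 probe set of Cyp51 were lower after TO901317. Of the 15 tested probe sets 2 were called lower, 0 higher and 13 were not called, where 0.0703% of all probe sets were called lower. All but 1 had a log2 difference below 0, with a median of -0.17. Over all probe sets the median was 0.0037 and 51.3% were above 0. Here too the 15 share animals and arrays and are not independent. No member separated the groups wholly, where 0.0074% of all probe sets did so upwards and 0% downwards. The vehicle Tg2576 arrays serve in both comparisons, so the falls here and the rises above are not independent of each other.

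Sqle was 578 ± 72.1 in vehicle and 448 ± 56.5 in treated animals (SD, n = 11 each). Of the 11 treated animals 10 lay below the lowest vehicle Tg2576 animal, and none lay above the vehicle median. The log2 difference was -0.36 (SE 0.07, 95% interval -0.50 to -0.21, limma adjusted p = 0.0226). It was -0.31 without treated replicate 6 (adjusted p = 0.0504) and -0.34 without treated replicate 10 (adjusted p = 0.055), and -0.32 without vehicle Tg2576 replicates 3 and 4 (adjusted p = 0.0802).

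For Cyp51, the lanosterol demethylase, both tested probe sets had differences below 0. On the dimmer one (1422533_at) the lowest, median and highest signals were 43.1, 62.0 and 70.4 in wild type, 48.9, 67.9 and 77.2 in vehicle-dosed Tg2576, and 37.8, 50.0 and 58.3 in treated Tg2576. The groups overlapped, but no treated animal was above the vehicle Tg2576 median. Its difference was -0.34 (SE 0.08, limma adjusted p = 0.0446), a call that was close to the limit and was lost in 21 of the 33 fits that left out 1 array, at values of -0.35 to -0.31 (adjusted p = 0.0506 to 0.1), and without vehicle Tg2576 replicates 3 and 4 (-0.32, adjusted p = 0.12). The brighter probe set (1450646_at) ran from 147 to 203 in wild type, from 166 to 223 in vehicle Tg2576 and from 117 to 200.4 in treated animals, and 7 of 11 treated animals lay below the lowest vehicle Tg2576 animal. Its difference was -0.26 (SE 0.06, limma adjusted p = 0.0647). It was called when only 1 probe set per gene was tested (adjusted p = 0.0459), and without vehicle Tg2576 replicate 5 (-0.29, adjusted p = 0.0434) or treated replicate 11 (-0.29, adjusted p = 0.0266).

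The enzymes called higher in vehicle Tg2576 besides Sqle were not called here. Hsd17b7 (1457248_x_at) differed by -0.22 (SE 0.05, 95% interval -0.33 to -0.12, limma adjusted p = 0.0561), and 6 of 11 treated animals lay below the lowest vehicle Tg2576 animal. It was called with 1 probe set per gene (adjusted p = 0.0377), without vehicle Tg2576 replicate 8 (-0.24, adjusted p = 0.0329) and without treated replicates 2 (-0.24, adjusted p = 0.0487) or 7 (-0.24, adjusted p = 0.045). Nsdhl differed by -0.24 (SE 0.06, 95% interval -0.37 to -0.11, limma adjusted p = 0.114), with no treated animal above the vehicle median.

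The difference of Sc5d was close to that of Sqle on its brightest probe set (1434520_at), -0.35, but with a larger spread (SE 0.09, limma adjusted p = 0.118). Its signal ran from 159.6 to 237 in wild type, from 148 to 277 in vehicle Tg2576 and from 106 to 222 in treated animals, with medians of 190.1, 209.5 and 172. Without vehicle Tg2576 replicate 11 it was called (-0.40, adjusted p = 0.0452). The other tested Sc5d probe sets gave -0.03 and 0.02, and with the probe sets of the gene averaged the difference was -0.12 (limma adjusted p = 0.551). The remaining enzymes gave -0.17 for Dhcr7, -0.14 for Tm7sf2, -0.12 for Ebp and -0.08 and -0.12 for the tested probe sets of Lss, with limma adjusted p between 0.383 and 0.803.

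Comparing treated Tg2576 mice with wild type changes genotype and drug at once. None of the 15 member probe sets was called by limma in either direction, where 0.144% of all probe sets were (0.0703% higher, 0.074% lower), and 4 had an unadjusted p under 0.05 beside 2215 of all 27022. None separated the groups wholly, against 0.0037% of all probe sets upwards and 0.0111% downwards. By mean log2 signal of the brightest probe sets, Sqle, Lss, Nsdhl and Hsd17b7 of treated animals lay between wild type and vehicle Tg2576, whereas Cyp51, Tm7sf2, Ebp, Sc5d and Dhcr7 lay below wild type. These placings are a description of means, and some are near 0, with -0.01 for Dhcr7 (95% interval -0.17 to 0.15) and -0.07 for Tm7sf2 (-0.30 to 0.16). For Sc5d the other tested probe sets lay above wild type, at 0.11 and 0.06, and the average of its probe sets differed by -0.02. The dimmer tested probe set of Lss was at -0.001. The other tested probe sets of Hsd17b7 were at 0.08 (1448865_at) and -0.09 (1417871_at).

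The 95% interval excluded 0 for 4 probe sets before adjustment. Nsdhl was still 0.16 above wild type (95% interval 0.03 to 0.29), and 6 of 11 treated animals exceeded the wild-type range. Sc5d differed by -0.23 on its brightest probe set (95% interval -0.41 to -0.04), and Cyp51 differed by -0.15 (-0.28 to -0.02) and -0.18 (-0.33 to -0.03). For Sqle the difference was 0.13 (-0.02 to 0.27), an interval that includes 0.

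**Figure D3:**
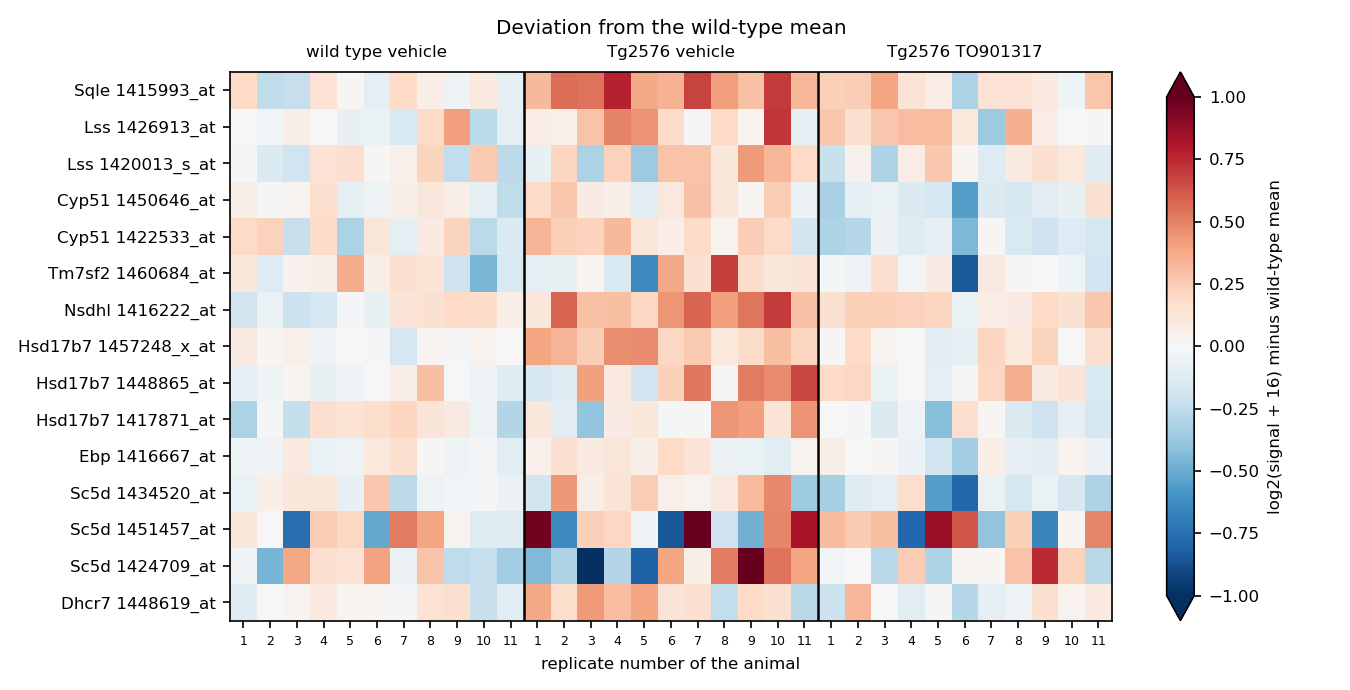
Deviation of log2(signal + 16) from the wild-type mean for the 15 tested probe sets (rows, pathway order) in each of the 33 animals (columns, by group and replicate number). The rows of Sqle and Nsdhl are red across vehicle Tg2576, treated replicate 6 is blue in most rows, and the lower Sc5d rows vary in all groups.

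The animals of a group were not alike. Averaged over the brightest probe sets of the 9 genes, the deviation from the wild-type mean ran from -0.09 to 0.09 in wild type, from 0.02 to 0.37 in vehicle Tg2576 (median 0.23) and from -0.35 to 0.10 in treated Tg2576 (median 0.03). In vehicle Tg2576, 10 of 11 animals exceeded the wild-type range, and replicate 11 did not. Treated replicate 6 was the lowest of its group in 7 of the 9 genes, where it was the lowest in 13.1% of all tested probe sets and the highest in 15.9%.

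Of 8 relations between Sqle and another member across animals, 1 passed for Pearson's r and 0 for Spearman's rho. With group means removed, Pearson's r between Sqle and each of the other 8 genes was above 0 in 8 of 8 relations and ranged from 0.20 for Lss to 0.55 for Cyp51 over 33 animals. The relation with Cyp51 passed for Pearson's r (permutation p = 0.00285, adjusted p = 0.0228 over 8 relations) but not for Spearman's rho (0.47, permutation p = 0.00823, adjusted p = 0.0658). Without the 2 animals farthest from the Sqle median, treated replicate 6 and vehicle Tg2576 replicate 4, r was 0.45 (adjusted permutation p = 0.0975), and the call was lost. Within groups of 11 it was 0.36 in wild type, 0.51 in vehicle Tg2576 and 0.68 in treated animals. Nsdhl gave r = 0.41 and rho = 0.38 (adjusted permutation p = 0.0798 and 0.159) and r = 0.40 without those 2 animals. The other 6 relations had r between 0.20 and 0.34 and rho between 0.04 and 0.22 (adjusted permutation p of at least 0.185 and 0.459), and between 0.04 and 0.14 as r without the 2 animals. Within wild type r with Sqle was below 0 for Lss (-0.21), Hsd17b7 (-0.30), Sc5d (-0.51) and Dhcr7 (-0.18), and within vehicle Tg2576 for Tm7sf2 (-0.12). In treated animals, which include replicate 6, it ran from 0.16 for Lss to 0.76 for Tm7sf2 and Nsdhl.

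Probe sets of the same gene did not always move together, which bears on how far a gene can be read from 1 of them. For Cyp51 the tested pair had r = 0.51 and rho = 0.42 with group means removed (n = 33, permutation p = 0.00175 and 0.0173, adjusted p = 0.007 and 0.0691 over 8 pairs), and r = 0.48 without the 2 animals farthest from the median. For Sc5d, 1434520_at and 1451457_at ran opposite to each other, with r = -0.65 and rho = -0.67 (permutation p = 0.00018 and 0.00013, adjusted p = 0.00144 and 0.00104), and r = -0.63 without the 2 farthest animals. The same sign held within each group, at r = -0.70 in wild type, -0.52 in vehicle Tg2576 and -0.81 in treated animals (n = 11 each).

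The signal of 1451457_at ranged over 67.5 to 186 in wild type, 62.3 to 278 in vehicle Tg2576 and 65.8 to 238 in treated animals, a coefficient of variation of 27.0%, 48.7% and 36.6%, where that of 1434520_at was between 10.4% and 18.8%. Its group difference was 0.14 between the genotypes (95% interval -0.30 to 0.59) and -0.03 for the drug (95% interval -0.47 to 0.42). The third probe set, 1424709_at, ran from 6.45 to 98.3 in vehicle Tg2576. The pairs within Lss and Hsd17b7 had r between -0.27 and 0.23, and neither r (adjusted permutation p of at least 0.286) nor rho (at least 0.148) passed. For Hsd17b7 the called set 1457248_x_at had r = -0.20 with 1448865_at and -0.27 with 1417871_at. The uncalled sets 1448865_at and 1417871_at had r = 0.23 with each other. In the other Sc5d pairs r was 0.23 and -0.33 and did not pass. No detection calls were used here, and whether these probe sets read separate transcripts was not tested.

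**Figure D4:**
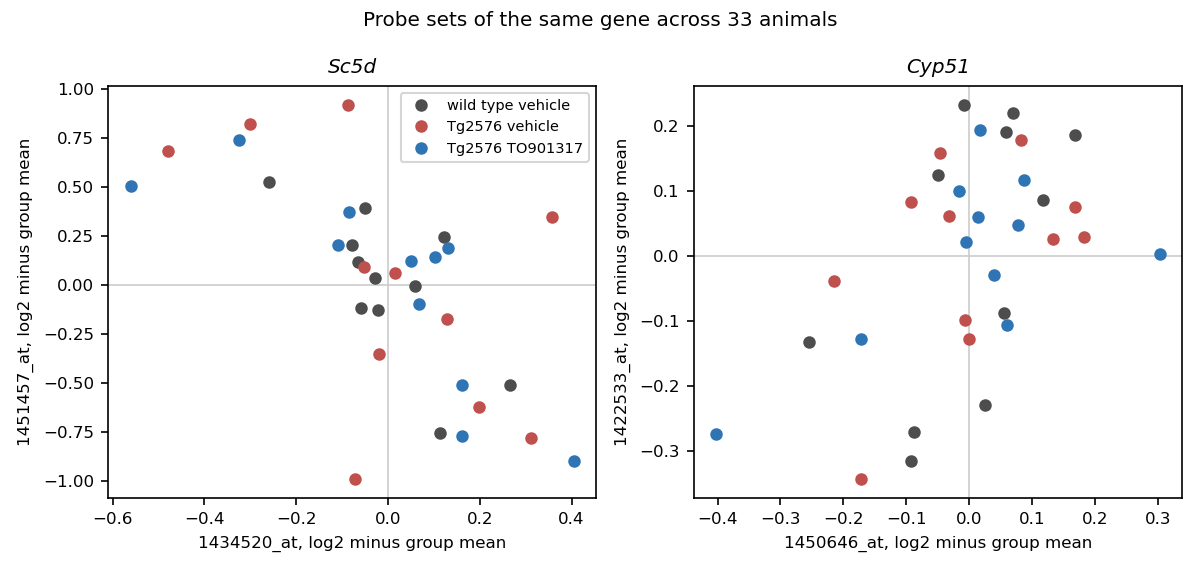
Log2(signal + 16) minus the group mean for 2 probe sets of Sc5d (left) and 2 of Cyp51 (right), 1 point per animal, coloured by group. The Sc5d points fall from upper left to lower right (r = -0.65) and the Cyp51 points rise (r = 0.51).

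Enzymes upstream of squalene were also called. Of 7 genes tested, Hmgcs1 (0.28), Fdps (0.48) and Fdft1 (0.56) were called higher between the genotypes and 0 lower, with a median of 0.24, and Hmgcs1 (-0.25) and Idi1 (-0.37) were called lower after treatment and 0 higher, with a median of -0.25. On the brightest probe sets the squalene to cholesterol enzymes had 3 of 9 called higher with a median of 0.16, and 1 of 9 called lower with a median of -0.22. A difference between upstream and downstream enzymes was not tested. The late enzyme Msmo1, the oxidase that acts with Nsdhl and Hsd17b7, had a mean signal of 566 in wild type, 764 in vehicle Tg2576 and 575 in treated mice and was not called (0.43 and -0.39, limma adjusted p = 0.214 and 0.266, SE 0.14). Lbr, which shares the reductase step of Tm7sf2, differed by 0.11 and -0.02 and was not called.

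The genes of sterol sensing were not called in any comparison. Of 6 tested, Insig1, which retains SREBP2 in the endoplasmic reticulum, had the smallest p between the genotypes (0.31, limma adjusted p = 0.0531) and differed by -0.07 after treatment. Srebf2, the gene of SREBP2, differed by 0.26 (adjusted p = 0.172) and -0.09 (adjusted p = 0.739). Of the LXR targets, 0 of 8 were called between the genotypes and 4 of 8 higher after treatment, with Abca1, the efflux transporter, at 0.61 and Srebf1 at 0.63.

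Among genes other than the members, likeness to the members was measured as Pearson's r with the mean of the 9 members over 33 animals, group means removed, as a description. The highest of 12756 genes was Idi1 (r = 0.78), and Fdps ranked 7 (0.66), Fdft1 12 (0.65), Srebf2 55 (0.53), Hmgcs1 71 (0.51) and Msmo1 83 (0.50). Other genes of the same lists ranked lower, with r = 0.36 for Mvd, 0.35 for Insig1, 0.06 for Scap, 0.02 for Insig2, -0.02 for Mvk, -0.15 for Lbr and -0.31 for Mbtps1. Abca1 and Srebf1 had r = -0.25 and -0.24. The others of the first 10 were Gm5617, Arid5a, Ufsp2, Mrps25, Klf10, Eef1e1, Tmem17 and Psma1, at 0.65 to 0.71. The order depended on 1 animal: without treated replicate 6, 3 of the first 10 remained (Eef1e1, Mrps25 and Idi1), Idi1 ranked 10 with r = 0.58, and Gm5617 ranked 312 with r = 0.37. Without that animal Fdft1 moved up to rank 6 (r = 0.59) and Fdps down to rank 26 (r = 0.55).

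Of the markers of other cell types few were called, but several lists lay mostly on one side of 0. Between the genotypes 7 of 8 meningeal and fibroblast markers were above 0 (median 0.38, none called), and their summed signal ran from 547 to 2087 in wild type, from 669.8 to 2251 in vehicle Tg2576 and from 486 to 1648 in treated mice. Of the markers of the dentate gyrus 7 of 8 were below 0 and 1 was called lower, Tdo2 (sums of 1586 to 2270.3, 1301 to 2126 and 1505 to 1902). Astrocyte markers, from a cell type that makes cholesterol, were below 0 in 8 of 10 with Slc4a4 called lower (sums of 10004 to 13263, 9803 to 11487 and 10773 to 13318), and 8 of 9 oligodendrocyte and myelin markers were below 0 with none called (sums of 8709 to 13265, 6765 to 12305 and 8865 to 12380.0). After treatment 0 of 8 meningeal markers were above 0 (median -0.21), the side on which the members lay, while 7 of 8 choroid plexus markers (median 0.25; sums of 336 to 9669 in wild type, 192 to 7071 in vehicle and 916 to 8463 in treated Tg2576), 6 of 7 endothelial (median 0.17) and 7 of 9 myelin markers (median 0.11) were above 0. With group means removed, the mean of the 9 members had r = -0.08 with the mean log2 signal of the meningeal markers over 33 animals. For other lists r was -0.10 (dentate gyrus), -0.12 (astrocytes), -0.15 (myelin), -0.14 (endothelium), -0.21 (choroid plexus) and 0.09 (hippocampal neurons). It was -0.07 for oligodendrocyte precursors and -0.09 for microglia. The part of these cell types in the results was not tested beyond the covariates given below. None of the markers of hippocampal neurons, oligodendrocyte precursors, microglia or choroid plexus was called between the genotypes or after treatment, and of 7 endothelial markers 1 was called higher after treatment. Fewer cells of a type and less RNA per cell cannot be told apart in such tissue samples. With 5 scores, of these 4 lists and of choroid plexus, as covariates, the differences between the genotypes were 0.40 for Sqle (limma adjusted p = 0.363), 0.44 for Nsdhl (adjusted p = 0.101) and 0.33 for Hsd17b7 (adjusted p = 0.259), and none was called. For the drug they were -0.35 for Sqle (limma adjusted p = 0.111) and -0.38 for Cyp51 (1422533_at, adjusted p = 0.0779). Without the covariates the differences between the genotypes were 0.49 for Sqle, 0.41 for Nsdhl and 0.29 for Hsd17b7. Over all probe sets, 43 were called between the genotypes without the covariates and 1 with them.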

How the data were processed

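The deposited signals are intensity values on a linear scale that the authors made with MAS5, per the submitters' processing notes. The MAS5 version is not given in the sources used here. Gene names came from GEO's annotation of the array, possibly outdated: 34945 probe sets name 1 gene, 932 several and 9160 none. After leaving out 64 control probe sets and the lowest 40% by mean signal, 27022 probe sets were fitted as log2(signal + 16) with limma 3.58.1 in R 4.3.3 (lmFit on all 33 arrays, 1 mean per group, eBayes with trend and robust), with Benjamini-Hochberg adjustment over all of them. A gene's brightest probe set is that of highest mean. Correlations used log2 values with group means removed and 100000 permutations of animals within groups. The procedures were tested on simulated data.

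The members and lists were chosen with earlier results of these data known. Named genes are all members, up to 4 passing genes of each other pathway list per comparison or else that of smallest p, a fixed set of pathway genes, and the 10 genes most alike. The pairs of probe sets within a gene, and the likeness without treated replicate 6, were added after the values were seen, and the motifs were chosen as common elements of this pathway. Lbr is named with its list, outside the rule. The sample titles give replicate numbers but do not say that these pair the animals, so the block on them is an alternative only. Alternatives were 13 settings and each array left out in turn. Precision is limited by having 11 arrays in a group.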

Additional observations from a re-analysis of the deposited data

How the results depend on the processing

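Between the genotypes 3 member probe sets were called in each of the 33 fits that left out 1 array and under 11 of 13 settings; with the probe sets of a gene averaged it was 2, and with marker scores as covariates 0. After treatment the count of 2 became 1 with no filter on low signals, 1 with quantile normalization and 1 with the replicate block. It became 4 with the lowest 60% left out, 0 with marker scores and 0 without vehicle Tg2576 replicates 3 and 4. With 1 probe set per gene, Sqle, Cyp51 1450646_at and Hsd17b7 1457248_x_at were called. With 1 array left out the count ranged from 0 to 3. The cause of these changes was not tested. In treated against wild type the count was 0 under all of these. Over all probe sets, the counts of 43, 38 and 39 (genotype, treatment, treated against wild type) became 1, 16 and 22 with marker scores, 66, 53 and 59 with the Gapdh covariate, 51, 59 and 66 with the lowest 60% left out, 29, 9 and 53 without vehicle Tg2576 replicates 3 and 4, and 25, 30 and 42 with only the groups compared.

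With group means removed, same-numbered animals correlated with r between -0.15 and 0.26 over all tested probe sets, and not every pair was above 0.1. Their median r was 0.10 between vehicle and treated Tg2576, 0.07 between wild type and treated Tg2576, and 0.06 between wild type and vehicle Tg2576. For animals of different numbers and different groups the median was -0.016. What same-numbered animals share was not tested. The block left 3 calls between the genotypes, 0 for treated against wild type and ended that of Cyp51 1422533_at (adjusted p = 0.0747 in limma).

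Signs turned only for values that were not called. Between the genotypes Sc5d 1424709_at was -0.047 with a pseudocount of 1, and with marker scores Lss 1420013_s_at was -0.061, Tm7sf2 -0.18, Hsd17b7 1417871_at -0.026, Sc5d 1451457_at -0.067 and Sc5d 1424709_at -0.22. After treatment Sc5d 1424709_at was -0.018 with a pseudocount of 64, -0.16 with the Gapdh covariate and -0.13 without vehicle Tg2576 replicates 3 and 4. In treated against wild type, marker scores gave -0.0015 for Hsd17b7 1448865_at, -0.067 for Sc5d 1451457_at, -0.12 for Sc5d 1424709_at and 0.0085 for Dhcr7, and the Gapdh covariate gave -0.00012 for Sc5d 1424709_at and 0.0043 for Dhcr7. With 1 array left out, the ranges were -0.094 to 0.14 (Sc5d 1424709_at, genotype), -0.081 to 0.15 and -0.13 to 0.063 (Sc5d 1424709_at and 1451457_at, treatment), and, for treated against wild type, -0.045 to 0.017 (Dhcr7), -0.028 to 0.029 (Lss 1420013_s_at), -0.0083 to 0.10 (Sc5d 1424709_at) and -0.12 to 0.0032 (Tm7sf2).

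The call of Cyp51 1422533_at was lost without wild-type replicates 7, 8 or 11, vehicle Tg2576 replicates 1 to 7, 9 or 10, or treated replicates 1, 2, 4 to 6 or 8 to 11. With the Gapdh covariate Nsdhl was called lower after treatment (-0.28, adjusted p = 0.0429 in limma) and the call of Cyp51 1422533_at was lost (-0.32, adjusted p = 0.0654), so the 2 calls there were Sqle and Nsdhl. The correlation of Sqle with Cyp51 was 0.45 and no longer passed without the 2 farthest animals.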
